A study of Mus musculus with 6 samples.

Results

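The genes described here encode the Wnt ligands, the enzymes that prepare and export them, and their receptors and secreted antagonists. Also included are the nuclear factors at the end of the pathway and Axin2, a feedback gene. They were taken by symbol: every probe set that names exactly 1 gene and whose gene is a Wnt, Fzd, Sfrp, Dkk1 to Dkk4, Rspo, Lgr4 to Lgr6 or Lrp4 to Lrp6 gene, or is Frzb, Wif1, Sost, Sostdc1, Kremen1, Kremen2, Notum, Porcn, Wls, Znrf3, Rnf43, Axin2, Lef1, Tcf7, Tcf7l1 or Tcf7l2. This gave 63 genes on 64 probe sets, of 19938 genes measured in all. One of the 63, Fzd10os, is an antisense transcript of the Fzd10 locus that the symbol pattern also takes in, and Tcf7 was not analysed here.

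RNA came from MC3T3-E1, a preosteoblast line that the labels describe as C57BL/6 newborn calvaria, and each of 6 samples was hybridised to 1 Affymetrix mouse gene array. The 3 undifferentiated samples were not induced and grew with 10% serum in α-MEM that holds no ascorbic acid. The 3 differentiated samples had been confluent cells, then held for 14 days in DMEM plus 10% serum, 1 mM sodium pyruvate, 0.1 µM dexamethasone (a synthetic glucocorticoid), 0.2 mM ascorbic acid-2-phosphate (which collagen hydroxylation needs) and 10 mM β-glycerophosphate (a phosphate source for mineral). Base medium, confluence, time and the 4 added compounds change together between the groups, so their shares in any difference cannot be told apart. The cells are 1 established line in culture, and what separated the 3 replicates of a group is not stated beyond the word independent. The p-values set each group difference against the spread between these samples. Whether that spread goes beyond culture dishes is not known.

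Wnt proteins are secreted lipid-modified signals. In the canonical branch a Wnt binds a Frizzled receptor and an Lrp5 or Lrp6 co-receptor, the complex that destroys β-catenin is held back, and β-catenin enters the nucleus to act with TCF/LEF proteins; other Wnts act through polarity and calcium branches. Secreted antagonists work either by binding the Wnt itself (Sfrp proteins, Wif1) or by binding the co-receptor (Dkk1, sclerostin). In bone the pathway promotes osteoblast formation, and loss of sclerostin or activating changes of LRP5 raise bone mass.

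Every value below is log2 expression centred so that the median of the 6 arrays is 0 for each probe set. Differences between arrays can be read from it. The level of a gene cannot, so it is not known which of these genes were expressed. The centring also makes the innermost value of each group mirror that of the other wherever the groups do not overlap. A gene is said to have risen or fallen when limma's Benjamini-Hochberg adjusted p over all 19938 genes was under 0.05, errors are standard errors (SE) of the log2 difference with 3 arrays per group, and all differences are differentiated minus undifferentiated. As in any bulk RNA sample, fewer cells that make a transcript and less transcript per cell cannot be told apart.

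The 250 bases before the start site are shown for the members whose promoters a reader may wish to set beside the values: those that changed at least 2-fold and have an entry in the RefSeq table (Fzd9, Wif1, Sfrp2, Axin2), and the leading falls that have one (Wnt10b, Tcf7l2). The sequences run 5′ to 3′ on the strand of the gene, in build GRCm38.p6. Capitals mark the searched motifs, which were the TCF/LEF core (CTTTG followed by AA, AT, TA or TT) and the glucocorticoid receptor half-site AGAACA, each on both strands.
Fzd9, chr5:135251048-135251297, minus strand: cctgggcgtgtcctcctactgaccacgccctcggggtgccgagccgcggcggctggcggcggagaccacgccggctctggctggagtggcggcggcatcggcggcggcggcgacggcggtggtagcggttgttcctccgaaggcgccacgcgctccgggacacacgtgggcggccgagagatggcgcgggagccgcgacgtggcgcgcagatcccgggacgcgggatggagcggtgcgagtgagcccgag
Wif1, chr10:121033754-121034003, plus strand: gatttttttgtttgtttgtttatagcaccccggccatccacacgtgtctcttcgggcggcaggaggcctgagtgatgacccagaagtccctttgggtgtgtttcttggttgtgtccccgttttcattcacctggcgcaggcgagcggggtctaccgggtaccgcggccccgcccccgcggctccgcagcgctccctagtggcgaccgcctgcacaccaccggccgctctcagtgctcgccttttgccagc
Sfrp2, chr3:83766071-83766320, plus strand: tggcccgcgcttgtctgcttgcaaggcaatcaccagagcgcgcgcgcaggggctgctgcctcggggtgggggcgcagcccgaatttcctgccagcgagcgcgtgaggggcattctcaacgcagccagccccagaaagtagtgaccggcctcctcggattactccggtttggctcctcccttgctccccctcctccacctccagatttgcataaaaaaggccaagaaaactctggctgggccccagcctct
Axin2, chr11:108920099-108920348, plus strand: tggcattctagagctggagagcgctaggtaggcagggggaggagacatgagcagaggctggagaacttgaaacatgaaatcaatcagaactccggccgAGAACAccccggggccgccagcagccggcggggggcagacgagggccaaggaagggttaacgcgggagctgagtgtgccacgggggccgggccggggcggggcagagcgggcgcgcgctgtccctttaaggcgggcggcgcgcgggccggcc
Wnt10b, chr15:98778151-98778400, minus strand: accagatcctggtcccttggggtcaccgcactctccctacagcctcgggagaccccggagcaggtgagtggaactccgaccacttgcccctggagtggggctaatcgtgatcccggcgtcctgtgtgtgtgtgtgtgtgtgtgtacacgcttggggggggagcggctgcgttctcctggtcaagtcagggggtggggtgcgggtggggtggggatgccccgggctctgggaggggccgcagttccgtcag
Tcf7l2, chr19:55895071-55895320, plus strand: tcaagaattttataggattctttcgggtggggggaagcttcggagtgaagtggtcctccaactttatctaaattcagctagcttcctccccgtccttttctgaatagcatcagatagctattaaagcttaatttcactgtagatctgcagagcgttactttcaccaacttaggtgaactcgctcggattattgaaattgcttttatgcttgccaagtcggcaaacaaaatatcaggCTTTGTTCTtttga

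Of the 63 genes, 39 had a RefSeq promoter entry; Porcn, Lrp5 and Rspo2 were among the 24 without one. A TCF/LEF core stood before the start of 6 of the 39 (15.4%), against 16.8% of all 27025 genes with an entry, and the 6 were Dkk1, Fzd7, Lef1, Tcf7l2, Wnt11 and Wnt5b. The half-site stood in 7 of the 39 (17.9%, against 18.2%), among them Axin2, Dkk2 and Tcf7l2. Axin2, a known β-catenin target, holds the half-site but no TCF/LEF core in this window. Tcf7l2 has a pair of entries, and in the one shown the 2 motifs overlap by sharing letters, while its other entry (chr19:55741560-55741809) has neither. The entry shown holds 40.8% G and C and the other 72.8%. A gene with several entries was counted when any of them held the motif. The member windows were richer in G and C than those of all genes, with medians of 66.4% and 52.4%.

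Across the 63 genes, 18 rose, 8 fell and 37 did not pass the threshold. Among all 19938 genes 16.4% rose and 19.1% fell, 35.5% together, so that the members' shares were 28.6% higher and 12.7% lower. Frizzled genes, secreted antagonists and genes of ligand lipidation, export and removal are 25 of the 63 members. They made up 13 of the 18 rises and 2 of the 8 falls, and 52% of them rose and 8% fell. These layers were joined for description only, since a pool of layers with many rises holds many rises by its making. The Lrp and Kremen layer, not in this pool, had 40% higher. At least 2-fold changes were seen in 7 of the 63 members, against 959 of all 19938 genes (4.81%). The 7 were rises of Porcn, Fzd9, Lrp5, Wif1, Sfrp2 and Axin2 and a fall of Rspo2. The 3 arrays of one group lay wholly beyond those of the other in 35 of the 63 members, 25 higher and 10 lower. Among all 19938 genes this held for 9210 (46.2%) in either direction. The median log2 difference was 0.09 over the members and 0.02 over all genes. Replicates of the members spread much like those of all genes, with a median within-group SD of 0.0918 against 0.0813. Wnt4, Rspo4 and Wif1 varied most among replicates, with SDs of 0.202, 0.187 and 0.167.

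**Figure D1:**
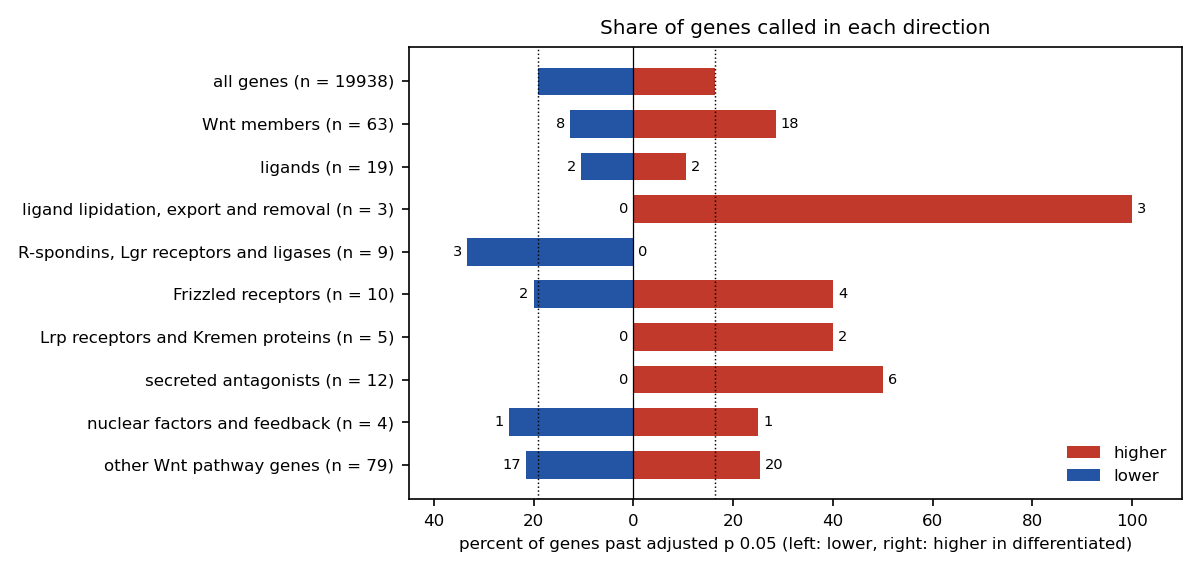
Percent of genes that rose (right, red) or fell (left, blue) at an adjusted p under 0.05, for all genes, all 63 members, each layer of the pathway and the other pathway genes; numbers at the bars are gene counts and dotted lines mark the shares of all genes. All 3 genes of ligand lipidation, export and removal rose, 6 of 12 secreted antagonists rose with 0 falling, and 3 of 9 R-spondin, Lgr and ligase genes fell with 0 rising.

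**Figure D2:**
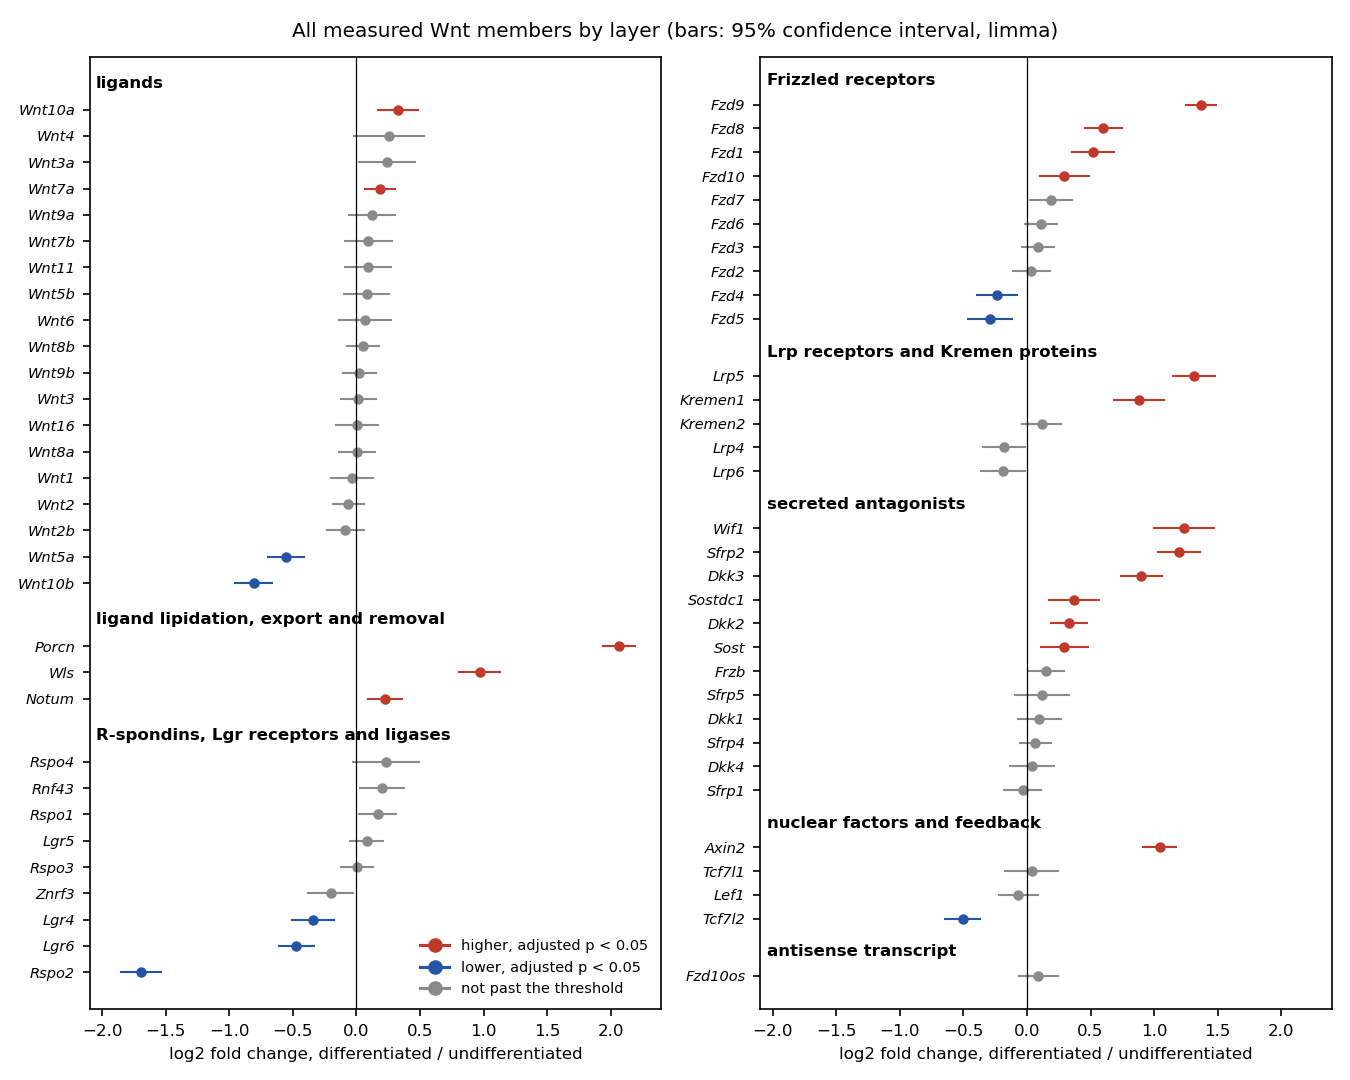
Log2 difference of each of the 63 members, differentiated minus undifferentiated, grouped by layer, with 95% confidence intervals from limma (3 arrays per group); red and blue mark genes past the threshold. Estimates run from -1.70 in Rspo2 to 2.06 in Porcn, and most ligands lie near 0.

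All 3 genes of ligand lipidation, export and removal rose, beside 16.4% of all genes. Porcn (probe set 10603492), the endoplasmic reticulum acyltransferase that attaches the lipid Wnts need for binding to Frizzled, stood at -0.98, -1.06 and -1.01 in undifferentiated replicates 1 to 3 and at 1.06, 0.98 and 1.09 in differentiated replicates 1 to 3. No other member's group means lie farther apart, and the arrays of each group lie close together. Porcn was 4.18-fold higher (log2 2.06 ± 0.05, adjusted p = 2.89e-08), the largest change among the 63. Wls (probe set 10497149), the carrier that takes lipidated Wnts to the cell surface, read -0.48, -0.63 and -0.40 before and 0.48, 0.53 and 0.40 after induction. It was 1.96-fold higher (0.97 ± 0.07, adjusted p = 7.58e-06), with no overlap between groups. Notum, the extracellular esterase that strips the lipid and so inactivates Wnts, rose less, by 0.22 ± 0.06 (adjusted p = 0.0166). The call for Notum was lost without undifferentiated replicate 1 or 2 or differentiated replicate 1 or 3 (adjusted p from 0.0524 to 0.0642).

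Most ligand genes did not pass the threshold. Past it were 21.1%, beside 35.5% of all genes. Of 19 measured, Wnt10a and Wnt7a rose, Wnt10b and Wnt5a fell, and the estimates of the other 15 ran from -0.09 ± 0.06 in Wnt2b to 0.26 ± 0.12 in Wnt4. Wnt10b (probe set 10432267), a canonical ligand that favours osteoblast over fat cell formation, read 0.32, 0.47 and 0.43 in undifferentiated arrays. Its differentiated arrays read -0.32, -0.45 and -0.43. All 3 induced samples were lower, and the gene fell 1.75-fold (-0.81 ± 0.06, adjusted p = 1.18e-05). Wnt5a (probe set 10413482), the best known ligand of the non-canonical branch, went from 0.23, 0.21 and 0.23 to -0.21, -0.37 and -0.39. Its undifferentiated arrays are nearly identical, and it was 1.47-fold lower (-0.55 ± 0.06, adjusted p = 1.10e-04). Both rises were small. Wnt10a, another canonical ligand, rose by 0.33 ± 0.07 (adjusted p = 0.00567), and Wnt7a by 0.19 ± 0.05 (adjusted p = 0.0206). Wnt7a was no longer past the threshold without undifferentiated replicate 1 or differentiated replicate 2 (adjusted p = 0.0667 and 0.0741).

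Wnt4 was the least certain ligand. Its pair of probe sets gave 0.17 ± 0.12 and 0.34 ± 0.13, and differentiated replicate 3 read 0.45 on their mean where the other differentiated arrays read 0.05 and -0.02. Without undifferentiated replicate 3 the ligands Wnt3a, Wnt7b and Wnt9a passed as rises (adjusted p = 0.0112, 0.0444 and 0.0387), which they did not with all arrays (0.0854, 0.434 and 0.283). Several Wnt genes are next neighbours on a chromosome, and the estimates of neighbours are given side by side without a test of their difference. Wnt10b lies next to Wnt1, which was at -0.04 ± 0.07, and Wnt10a next to Wnt6, which was at 0.07 ± 0.09. The neighbours Wnt3 and Wnt9b were at 0.01 ± 0.06 and 0.02 ± 0.06.

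**Figure D3:**
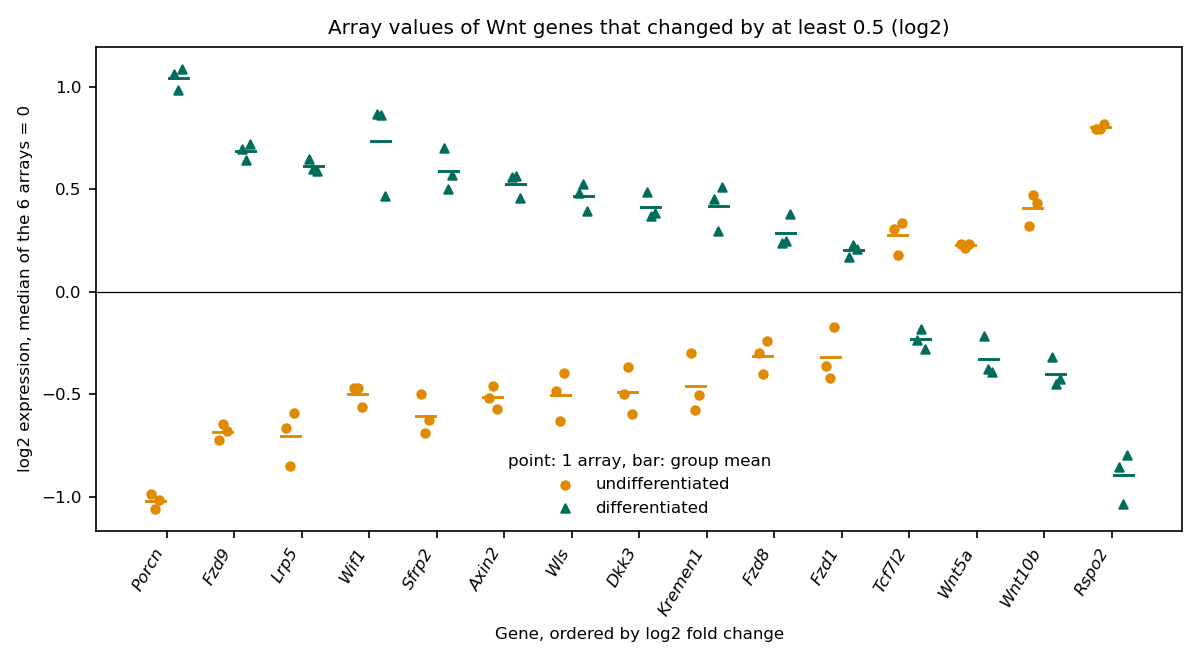
Centred log2 expression in each of the 6 arrays (orange circles undifferentiated, green triangles differentiated, bars group means) for the 15 members past the threshold with a difference of at least 0.5. The groups do not overlap in any of the 15, and Porcn and Rspo2 are the farthest apart.

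Of 9 genes of the R-spondin arm 3 fell, 0 rose and 6 did not pass, a called share of 33.3% beside 35.5% of all genes, and the median estimate was 0.0059. In limma 6 of the 9 had an unadjusted p under 0.05, as did 8584 of all 19938 genes. R-spondins are secreted amplifiers that bind Lgr4, Lgr5 or Lgr6 and remove the ligases Znrf3 and Rnf43, which would otherwise clear Frizzled from the membrane. Rspo2 (probe set 10428388) read 0.79, 0.80 and 0.82 in undifferentiated arrays and -0.86, -1.03 and -0.79 in differentiated arrays. It fell 3.24-fold (-1.70 ± 0.07, adjusted p = 2.19e-07), the largest fall of the 63 genes. The receptors Lgr6 (-0.47 ± 0.06, adjusted p = 2.48e-04) and Lgr4 (-0.34 ± 0.07, adjusted p = 0.00587) fell too, without overlap between groups. Lgr5, Rspo1, Rspo3, Rspo4, Znrf3 and Rnf43 did not pass. Their estimates ran from -0.20 ± 0.08 in Znrf3 (adjusted p = 0.0791) to 0.23 ± 0.11 in Rspo4 (adjusted p = 0.157). Rspo4 and Rnf43 passed as rises without undifferentiated replicate 3 (adjusted p = 0.0101 and 0.0367), and Rnf43 also without differentiated replicate 2 (0.0372) and with the replicate block (0.0484). Znrf3 sits next to Kremen1, which rose.

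Frizzled receptors, which bind Wnts through a cysteine-rich outer domain, moved both ways, 4 of 10 higher and 2 lower. These are 40% and 20%, beside 16.4% and 19.1% of all genes. Fzd9 (probe set 10534426), a receptor with a described role in bone formation, read -0.72, -0.64 and -0.68 in undifferentiated arrays. After induction the arrays read 0.70, 0.64 and 0.72. The groups are wide apart and each spans less than 0.1, and Fzd9 was 2.58-fold higher (1.37 ± 0.05, adjusted p = 1.67e-07). Fzd8 (probe set 10453738) went from -0.30, -0.40 and -0.24 to 0.24, 0.25 and 0.38, a rise of 0.60 ± 0.07 (adjusted p = 9.28e-05). Fzd1 (probe set 10527936) went from -0.36, -0.42 and -0.17 to 0.17, 0.23 and 0.21, a rise of 0.52 ± 0.07 (adjusted p = 4.12e-04). In Fzd1, undifferentiated replicate 3 lies nearest the differentiated arrays. After cyclic loess the rise of Fzd1 was 0.38, still past the threshold.

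The remaining Frizzled calls were small and sensitive to the arrays used. Fzd10 rose by 0.29 ± 0.08 (adjusted p = 0.0239), Fzd4 fell (-0.24 ± 0.07, 0.0247) and so did Fzd5 (-0.29 ± 0.08, 0.0163). Fzd10 missed the threshold without undifferentiated replicate 1 or 2 or differentiated replicate 1 or 3 (adjusted p from 0.0625 to 0.0920). Fzd4 missed it without undifferentiated replicate 1 or differentiated replicate 1 or 2 (0.0793 to 0.0869), and Fzd5 without undifferentiated replicate 1 or differentiated replicate 2 or 3 (0.0506 to 0.0598). Fzd7 (0.19 ± 0.07, adjusted p = 0.0720) passed only without undifferentiated replicate 3 (0.0370) among the alternatives run. Fzd2, Fzd3 and Fzd6 were at 0.03 ± 0.06, 0.09 ± 0.05 and 0.11 ± 0.06, and the 95% interval of Fzd2 was -0.11 to 0.18. The antisense transcript Fzd10os was at 0.09 ± 0.07 (adjusted p = 0.369), and whether its probes and those of Fzd10 are kept apart by strand is not given in the labels.

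Of 5 Lrp and Kremen genes 2 rose and 0 fell, or 40% and 0%, beside 16.4% and 19.1% of all genes. The co-receptor genes differed in estimate. Lrp5 (probe set 10464504), the co-receptor best known from human bone mass disorders, read -0.66, -0.85 and -0.59 in undifferentiated arrays and 0.65, 0.60 and 0.59 in differentiated arrays. It was 2.49-fold higher (1.31 ± 0.07, adjusted p = 1.21e-06), with the differentiated arrays within 0.1 of each other. Its close relative Lrp6 was at -0.19 ± 0.08 and did not pass (adjusted p = 0.0924, 95% interval -0.36 to -0.01), but passed as a fall without undifferentiated replicate 2 (adjusted p = 0.00994). After cyclic loess its estimate was 0.06, a change of sign without a call. Lrp4, a receptor for sclerostin and agrin, was at -0.18 ± 0.07 (adjusted p = 0.0891), and passed as a fall after cyclic loess (0.0175) and without differentiated replicate 1 (0.0470).

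Kremen proteins bind Dkk1 and draw Lrp6 from the cell surface. Kremen1 (probe set 10383970) read -0.30, -0.58 and -0.51 in undifferentiated and 0.45, 0.30 and 0.51 in differentiated arrays. All differentiated arrays were higher, and the gene rose 1.84-fold (0.88 ± 0.09, adjusted p = 4.87e-05). Kremen2 was at 0.12 ± 0.07 (adjusted p = 0.229), and passed as a rise without undifferentiated replicate 3 (0.0476). After cyclic loess Kremen2 stood at 0.01.

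Of 12 secreted antagonists, 6 (50%) rose and none fell past the threshold, beside 16.4% and 19.1% of all genes. In limma 7 of the 12 had an unadjusted p under 0.05, as did 8584 of all 19938 genes. Wif1 (probe set 10366653), which binds Wnts outside the cell, read -0.47, -0.47 and -0.56 in undifferentiated and 0.87, 0.87 and 0.47 in differentiated arrays. Differentiated replicate 3 stands below the other 2 but above all undifferentiated arrays, which gives Wif1 a within-group SD of 0.167. It was 2.35-fold higher (1.23 ± 0.10, adjusted p = 1.91e-05). Under the alternatives run its estimate lay between 1.17 and 1.72 and stayed past the threshold. Sfrp2 (probe set 10492798), a decoy with a Frizzled-like domain, went from -0.50, -0.69 and -0.62 to 0.70, 0.50 and 0.57. It was 2.29-fold higher (1.20 ± 0.07, adjusted p = 2.43e-06). Dkk3 (probe set 10567010), the divergent member of the Dickkopf family, went from -0.50, -0.37 and -0.59 to 0.49, 0.37 and 0.38, and was 1.87-fold higher (0.90 ± 0.07, adjusted p = 1.10e-05).

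Smaller rises were seen in Sostdc1, Dkk2 and Sost. Sostdc1, a relative of sclerostin that binds Lrp proteins and BMPs, rose by 0.37 ± 0.09 (adjusted p = 0.00854), and Dkk2, a ligand of Lrp5 and Lrp6, by 0.33 ± 0.06 (adjusted p = 0.00296). Sost, which encodes the osteocyte protein sclerostin, read -0.37, -0.20 and -0.05 in undifferentiated and 0.05, 0.06 and 0.16 in differentiated arrays. The innermost arrays nearly meet, and the rise was 0.29 ± 0.08 (adjusted p = 0.0216). The Sost call was lost after cyclic loess (estimate 0.15, adjusted p = 0.0659) and without undifferentiated replicate 1 or 2 or differentiated replicate 3 (0.0557 to 0.0814). Dkk1, the classical co-receptor antagonist, was at 0.10 ± 0.08 (adjusted p = 0.380, 95% interval -0.07 to 0.27).

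Members of the Sfrp family other than Sfrp2 did not pass. Sfrp1 was at -0.04 ± 0.06, Sfrp4 at 0.07 ± 0.05, Sfrp5 at 0.11 ± 0.09 and Frzb at 0.15 ± 0.06. Of these, Sfrp5 passed as a rise without undifferentiated replicate 3 (adjusted p = 0.0312). Dkk4 was at 0.04 ± 0.08, and its sign changed under 2 of 15 alternatives.

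Of the 4 genes that are nuclear factors or feedback, Axin2 rose and Tcf7l2 fell. That is 25% each way, beside 16.4% higher and 19.1% lower among all genes. Axin2 (probe set 10382228), a scaffold of the complex that destroys β-catenin and itself a widely used readout of canonical signalling, read -0.52, -0.46 and -0.57 in undifferentiated arrays. In differentiated arrays it read 0.56, 0.56 and 0.46. It was 2.06-fold higher (1.04 ± 0.06, adjusted p = 1.26e-06), and the groups are separated by more than the spread within either. Tcf7l2 (probe set 10464084), a DNA-binding partner of β-catenin, went from 0.31, 0.18 and 0.34 to -0.24, -0.18 and -0.28, and was 1.42-fold lower (-0.51 ± 0.06, adjusted p = 1.78e-04). Its relatives Lef1 (-0.07 ± 0.07, adjusted p = 0.504, 95% interval -0.22 to 0.08) and Tcf7l1 (0.04 ± 0.09, adjusted p = 0.804) did not pass.

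Other genes of the pathway were counted from lists of signal transducers, the non-canonical branch and genes described as β-catenin targets. Of 79 measured genes that are not among the 63, 20 rose, 17 fell and 42 did not pass. Rises were 25.3% and falls 21.5%, beside 16.4% and 19.1% of all genes. Of the 36 signal transducers 8 rose and 9 fell (22.2% and 25%). Ctnnb1, which encodes β-catenin, rose 1.57-fold (0.65 ± 0.05, adjusted p = 1.10e-05), and its kinase Gsk3b fell slightly (-0.20 ± 0.06, adjusted p = 0.0268). The Gsk3b call was lost without undifferentiated replicate 1 or 2 or differentiated replicate 2 or 3 (0.0677 to 0.101). The Dishevelled-binding proteins Dact1 (1.18 ± 0.05) and Nkd2 (0.97 ± 0.15) rose, and Ctnnbip1, which blocks the binding of β-catenin to TCF, fell (-0.50 ± 0.06). After cyclic loess Nkd2 stood at 0.43. The falls of Csnk1g1 (-0.30 ± 0.07) and Amer1 (-0.43 ± 0.14, adjusted p = 0.0439) came next, and that of Amer1 was lost after cyclic loess (0.0716) and without undifferentiated replicate 2 or 3 or differentiated replicate 3 (0.0633 to 0.142).

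In the non-canonical branch 4 of 23 genes rose and 5 fell. These are 17.4% and 21.7%, near the 16.4% and 19.1% of all genes. Ror2, a co-receptor for Wnt5a, rose (0.65 ± 0.06), as did the polarity gene Prickle1 (0.83 ± 0.08) and the glypican Gpc4 (0.41 ± 0.07). The Wnt-binding receptor Ryk (-0.70 ± 0.06), the kinase Mapk8 (-0.64 ± 0.06) and the polarity co-receptor Ptk7 (-0.57 ± 0.07) fell. Of 23 measured genes described as β-catenin targets, a list that shares Znrf3 and Rnf43 with the members, 8 rose and 3 fell. Those are 34.8% and 13.0%, beside the same shares of all genes. Jun (2.17 ± 0.07), Enc1 (1.37 ± 0.07) and Tnfrsf19 (1.36 ± 0.08) led the rises, with Ccnd1 at 0.49 ± 0.05 (adjusted p = 9.18e-05) and Myc at 0.72 ± 0.12 (adjusted p = 0.00111, but 0.0512 after cyclic loess). The gap junction gene Gja1 (-2.48 ± 0.06) and Id2 (-1.28 ± 0.07) fell, and so did Ccn5 (-0.24 ± 0.07, adjusted p = 0.0210), whose call was lost without undifferentiated replicate 2 or 3 or differentiated replicate 2 (0.0563 to 0.0726). Each of these genes answers other signals as well, so their counts are no measure of Wnt activity.

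**Figure D4:**
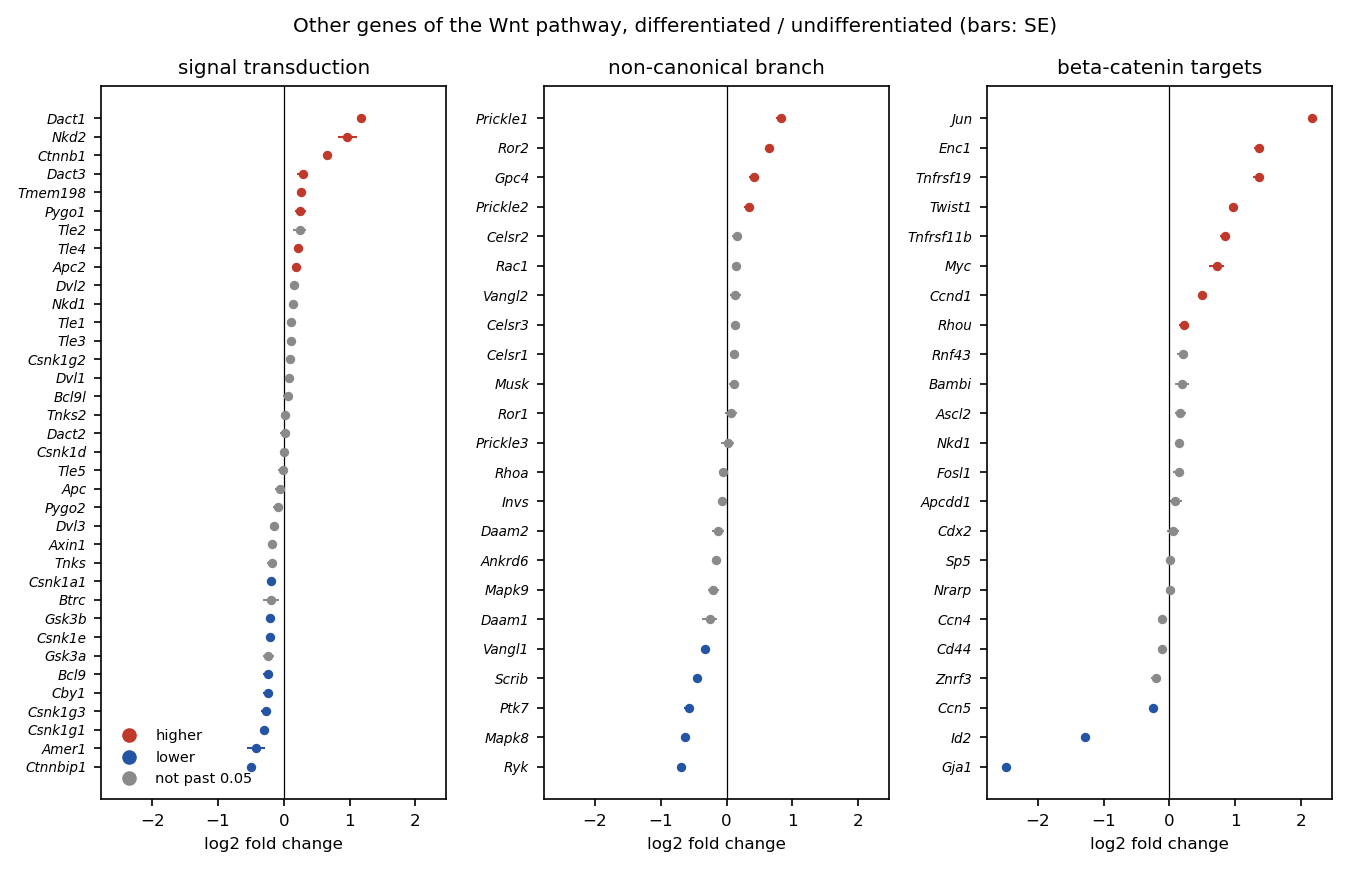
Log2 difference, differentiated minus undifferentiated, with its SE (3 arrays per group), for the other pathway genes in 3 lists; red and blue mark genes past an adjusted p of 0.05 and grey the rest. Ctnnb1, Dact1 and Nkd2 lead the transducers, and the target list runs from -2.48 in Gja1 to 2.17 in Jun.

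Because levels cannot be read, markers of lineage could be checked for changes and not for presence. Of 7 measured osteoblast markers, 4 rose (Dmp1, Ibsp, Omd and Alpl), Col1a1 and Sp7 fell, and Col1a2 did not pass. The Sp7 call did not hold after cyclic loess (adjusted p = 0.150). Runx2, Bglap and Spp1 were not analysed here. Markers of other cell types gave 2 rises of 7 in the adipocyte list and 2 rises and 1 fall of 8 for chondrocytes. The macrophage list gave 2 rises of 8 and the endothelial list 1 rise of 8. In that order 28.6%, 37.5%, 25% and 12.5% were called, beside 85.7% of the osteoblast markers and 35.5% of all genes. The part of other cell types in the results above was not tested. Array medians over all probe sets lay between -0.00499 and 0.00838.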

How the data were processed

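RNA of 3 undifferentiated and 3 differentiated MC3T3-E1 samples was read on 1-colour arrays, 1 per sample, with groups and replicate numbers from the sample titles. The deposited values are log2 expression made with RMA, per the submitters' processing notes (version and genome build not given in the sources used here). The log base is taken from the method. All 28856 probe sets are centred on their median over the arrays (0 within 1e-06), so levels, detection and filters on dim probes cannot be had. No depth applies to arrays, and their number limits the precision.

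Of the probe sets, 21789 name 1 gene by the platform annotation, with symbols updated by gene ID (21698 matched) through RefSeq's GRCm38.p6 table. A gene with several probe sets took their mean (Wnt4 alone among the members). All 19938 genes were fitted together in limma (lmFit and eBayes, two-sided, replicate number not in the model); p-values were adjusted by Benjamini-Hochberg, with a threshold of 0.05. The fit was tested on simulated data. The members and lists were chosen with earlier results of these data known. Named were all members past the threshold (array values from a log2 difference of 0.5), the ends of each layer among the rest, 10 members whatever their result, the 3 leading rises and falls of each other list, and Ctnnb1, Gsk3b, Ccnd1 and Myc. Other members not past the threshold were named after their values were seen. Alternatives were the replicate block, 3 other scalings, array weights, robust eBayes, other probe set rules, each array left out and a threshold of 0.01. R 4.3.3, limma 3.58.1, the data.table package (1.17.8), Python 3.11.15 and matplotlib 3.10.9 were used.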

Additional observations from a re-analysis of the deposited data

How the results depend on the processing

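Of the 26 members past the threshold, 20 stayed past it under every alternative run, the threshold of 0.01 included, and none of the 26 changed sign under any of them. The other 6 (Fzd10, Fzd4, Fzd5, Notum, Sost and Wnt7a) lost their call under at least 1, and 10 members gained one under at least 1. Leaving out each array in turn gave 14 to 26 members higher (26 without undifferentiated replicate 3, 14 without undifferentiated replicate 1) and 6 to 9 lower, 6003 to 7523 genes changed in all, and 16 to 19 other pathway genes higher and 12 to 16 lower. At a threshold of 0.01, 14 members were higher and 6 lower, and the falls among other pathway genes went from 17 to 9. Cyclic loess gave 17 and 9 members. It fits differences between arrays against their average, which holds no level in centred values. Whether the shifts it gave come from that centring was not tested. With the replicate number as a block, 19 members were higher and 8 lower, 7162 genes changed in all, and 19 and 18 other pathway genes rose and fell. Deviations of same-numbered arrays from their group means correlated at -0.00133, 0.0692 and 0.162 over genes. Undifferentiated replicate 1 correlated best with differentiated replicate 2 (0.135), and undifferentiated replicates 2 and 3 with the differentiated array of the same number. Correlations this weak cannot decide whether the numbers pair the samples. The scalings moved the median of all genes from 0.0206 to between 0.0125 and 0.0126.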
